A study of Homo sapiens with 9 samples.

Results

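The drug-metabolizing enzymes of phase I and phase II were described in the human hepatocellular carcinoma (HCC) line MHCC97L and in 2 lines derived from it. The genes were taken by their symbols, as the cytochrome P450 genes of families CYP1 to CYP4, the UDP-glucuronosyltransferases UGT1A and UGT2B, the sulfotransferases SULT1 and SULT2, and the glutathione S-transferases GSTA, GSTM, GSTT and GSTO. The count table held 78 such genes among 20030, and 20 of the 78 had at least 10 counts in at least 3 of the 9 libraries. Poly(A)-selected RNA was sequenced from untreated MHCC97L cells (n = 3), from MHCC97L-Src cells (n = 3) and from MHCC97L-Oxa cells (n = 3). MHCC97L-Src cells had been selected in rising concentrations of saracatinib, an inhibitor of Src family kinases, up to stable resistance at 4 μmol/L. MHCC97L-Oxa cells were stably resistant to oxaliplatin, a platinum drug, at 2 μmol/L. All cells grew in DMEM with 10% fetal bovine serum, and the labels give no gene deletion or transgene. The treatment label reads none for MHCC97L, saracatinib for MHCC97L-Src and oxaliplatin for MHCC97L-Oxa. Whether a resistant line was 1 clone and whether drug was present at harvest is not given in the sources used here. Resistance and current exposure to the drug therefore cannot be told apart. The study describes its comparison of MHCC97L-Src with MHCC97L as independent experiments, and the labels do not tie libraries to separate cultures, so p-values measure only the spread between these libraries.

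Phase I enzymes add or unmask a polar group on a lipophilic drug, mostly by oxidation through cytochrome P450, and phase II enzymes then attach glucuronic acid, sulfate or glutathione so that the product can be excreted. In the liver, hepatocytes hold most of these enzymes, and the CYP2C, CYP3A, UGT2B and SULT2A genes among them depend on hepatocyte regulators such as HNF4A and the nuclear receptors NR1I2 (PXR) and NR1I3 (CAR). The CYP1 genes follow another route: the aryl hydrocarbon receptor (AHR), once bound by a planar aromatic ligand, pairs with ARNT on a short DNA element and switches on CYP1A1, CYP1B1, AHRR, TIPARP and NQO1.

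Libraries held 16970486 to 18209213 counts, so that 3 counts, the limit that a count of 0 allows, corresponded to 0.165 to 0.177 CPM (counts divided by the library total and scaled to 1000000) for counting error only. The 78 genes took 0.0293% to 0.0377% of the counts of a library. MHCC97L replicate 1 had the strongest dependence on GC content. Spearman's rho across 12126 genes between transcript GC content and the deviation of a gene's level from its mean over the 9 libraries was -0.78 there. It was 0.30 and -0.26 in MHCC97L replicates 2 and 3, 0.19 to 0.70 in MHCC97L-Src and 0.17 to 0.31 in MHCC97L-Oxa. GC dependence therefore differed between the lines as well as within them. Of 17 hepatocyte markers, 6 were at 0 in every library, ALB among them, and 13 stayed under 10 counts; CPS1 alone had 1049 to 9893. The 5 fetal liver or HCC markers, AFP and GPC3 included, had at most 3 counts in any library. The summed hepatocyte markers therefore mostly showed CPS1, at 1067 to 9914 counts (MHCC97L), 2019 to 2667 (MHCC97L-Src) and 1729 to 2062 (MHCC97L-Oxa). KRT7, a cytokeratin of biliary epithelium, differed between the lines with 37090 to 68121 counts (MHCC97L), 12816 to 15999 (MHCC97L-Src) and 28468 to 33161 (MHCC97L-Oxa). The other biliary markers did not follow it. SOX9 had 38 to 57 counts (MHCC97L), 99 to 116 (MHCC97L-Src) and 123 to 148 (MHCC97L-Oxa). KRT19 had at most 11 counts, SPP1 at most 2 and CFTR 0. CDH5, an endothelial cadherin, had 17 to 28 counts (MHCC97L), 188 to 236 (MHCC97L-Src) and 7 to 12 (MHCC97L-Oxa), and DCN, a fibroblast proteoglycan, 729 to 2256 (MHCC97L), 163 to 446 (MHCC97L-Src) and 1082 to 1262 (MHCC97L-Oxa). Among the other fibroblast markers, LUM and PDGFRB were also lowest in MHCC97L-Src. COL1A1 had 1083 to 1159 counts (MHCC97L), 1022 to 1163 (MHCC97L-Src) and 1303 to 1491 (MHCC97L-Oxa), and COL1A2 and COL3A1 had at most 9. KDR, another endothelial marker, was at 0 in every library, and PECAM1, also endothelial, had 15 to 39 counts with overlap between the lines. The part of these markers in the enzyme differences was not tested. The label of a liver carcinoma cell was thus not matched by the hepatocyte markers.

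Sequences are given for the 2 gene groups on which the results below turn, and the first is promoters searched for a short element that AHR binds. From RefSeq (GRCh38.p14), 250 bases before to 50 bases after the start of the gene were searched on both strands for GCGTG, the core of the AHR element, and for TGACNNNGC, the core of the antioxidant response element. GCGTG was present in 36.5% of 35116 promoters of this length and TGACNNNGC in 13.3%. Of the 20 expressed enzyme genes, 15 were matched to a promoter, 6 of them held GCGTG (CYP1A1, CYP2U1, GSTM3, GSTM4, SULT2B1 and UGT1A7) and 2 held TGACNNNGC (GSTA4 and GSTO1). CYP1B1, CYP4F12, GSTT2B, SULT1A1 and SULT1A2 were not matched. The promoters below were picked for display and are not a ranking of the differences. Whether GCGTG goes with the direction of a change was not tested, and bases outside this window were not searched. Of the genes with GCGTG that are not shown, GSTM4 and SULT2B1 had log2 fold changes of 0.55 and 0.55 in MHCC97L-Src. CYP2U1 and GSTM3 had -0.62 and -0.75 there. SULT1A4, GSTO2 and TIPARP are not shown, though their log2 fold changes in MHCC97L-Src were 3.48, 1.04 and -2.55. Capitals mark GCGTG, or its complement on the other strand. Shown are CYP1A1 (chr15:74725479-74725778, minus strand), UGT1A7 (chr2:233681651-233681950, plus strand), AHRR (chr5:321464-321763, plus strand) and CYP2S1 (chr19:41192969-41193268, plus strand). No match was found in CYP2S1.
CYP1A1: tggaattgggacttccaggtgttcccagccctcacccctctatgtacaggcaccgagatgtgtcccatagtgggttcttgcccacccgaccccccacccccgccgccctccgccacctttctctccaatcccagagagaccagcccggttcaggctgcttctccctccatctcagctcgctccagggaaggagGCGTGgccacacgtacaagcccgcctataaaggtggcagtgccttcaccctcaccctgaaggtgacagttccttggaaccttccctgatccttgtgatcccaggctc
UGT1A7: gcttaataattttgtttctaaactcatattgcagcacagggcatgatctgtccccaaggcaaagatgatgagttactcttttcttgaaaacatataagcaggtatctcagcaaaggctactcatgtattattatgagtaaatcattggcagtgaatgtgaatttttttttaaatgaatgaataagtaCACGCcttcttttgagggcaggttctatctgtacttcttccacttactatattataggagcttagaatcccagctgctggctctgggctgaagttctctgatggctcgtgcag
AHRR: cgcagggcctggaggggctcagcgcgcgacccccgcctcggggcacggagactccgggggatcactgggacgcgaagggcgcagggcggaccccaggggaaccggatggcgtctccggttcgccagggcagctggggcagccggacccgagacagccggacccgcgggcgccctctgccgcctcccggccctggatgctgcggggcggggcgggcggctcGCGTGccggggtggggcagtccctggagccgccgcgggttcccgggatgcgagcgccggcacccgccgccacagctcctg
CYP2S1: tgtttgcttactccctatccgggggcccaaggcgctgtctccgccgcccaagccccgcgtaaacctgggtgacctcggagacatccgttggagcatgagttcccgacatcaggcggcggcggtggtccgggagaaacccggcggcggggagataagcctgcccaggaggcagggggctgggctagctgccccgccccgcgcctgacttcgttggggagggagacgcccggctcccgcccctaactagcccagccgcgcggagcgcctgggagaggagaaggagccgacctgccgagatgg
CYP1A1, UGT1A7 and AHRR held 1 match each.

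The second group is the SULT1A genes of chromosome 16, whose reads are hard to tell apart. In GENCODE 29 transcripts (GRCh38), the longest coding sequences of SULT1A3 and SULT1A4 had 903 bases and were identical at 903 of them. SULT1A1 and SULT1A2, of 885 coding bases each, were 96.8% identical, and SULT1A1 and SULT1A3 were 92.6% identical. The stretch from coding base 188 to 277 is shown because it is where SULT1A3 differed most from SULT1A1 over 90 bases. Capitals mark a base that differs from SULT1A1.
SULT1A1: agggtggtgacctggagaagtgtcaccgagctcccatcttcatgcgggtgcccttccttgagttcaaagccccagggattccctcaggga
SULT1A2: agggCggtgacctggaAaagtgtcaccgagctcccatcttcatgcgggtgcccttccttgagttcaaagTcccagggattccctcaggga
SULT1A3: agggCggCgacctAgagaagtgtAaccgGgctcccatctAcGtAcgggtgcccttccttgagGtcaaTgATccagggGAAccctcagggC
SULT1A4: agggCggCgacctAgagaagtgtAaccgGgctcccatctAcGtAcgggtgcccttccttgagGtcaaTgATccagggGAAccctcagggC
SULT1A2 differed from SULT1A1 at 3 of the 90 bases, and SULT1A3 and SULT1A4 at the same 16. Counts of SULT1A3 and SULT1A4 are uncertain for this reason.

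Most of the enzyme genes for which the liver is known had few or no counts in these cells. Of the 78 genes, 40 had no count in any of the 9 libraries, and 18 more had counts but did not reach 10 in 3 libraries. All 7 UGT2B genes, SULT2A1, CYP2C8, CYP2B6 and CYP2A6 were at 0, which allows at most 0.165 to 0.177 CPM in a library. That bound is for counting error only, because how reads shared between similar genes were counted is not given. At 0 counts were also 7 of 9 UGT1A genes, but these share exons, so a count of 0 does not bound their level. UGT1A8 was one of the 7 and yet had 0.0529 FPKM, the deposited value per gene length, in MHCC97L replicate 3. CYP3A4, the main drug-oxidizing P450 of adult liver, had 1 count in MHCC97L-Src replicate 2 and none in the other 8 libraries. No CYP3 gene among 5 reached the minimum. Among the regulators, NR1I3 had no count, NR1I2 at most 4 and HNF4A, the hepatocyte nuclear factor that many of these genes need, 2 to 13. Others of the list were well above the minimum: RXRA, the partner of NR1I2 and NR1I3, had 1104 to 1687 counts, CEBPB 2159 to 6398, CEBPA 69 to 352, PPARA 92 to 319 and FOXA1 41 to 109. The genes over the minimum were 2 of 3 CYP1, 4 of 17 CYP2, 2 of 12 CYP4, 1 of 9 UGT1A, 4 of 9 SULT1, 1 of 2 SULT2, 1 of 5 GSTA, 2 of 5 GSTM, 1 of 2 GSTT and 2 of 2 GSTO genes.

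Levels between genes were compared as FPKM. GSTO1, an omega-class enzyme that reduces dehydroascorbate and methylated arsenic, ranked first with a mean of 89.1 FPKM over the 9 libraries (48.0 to 102.5). UGT1A7 (2.82 to 32.6 FPKM), SULT1A1 (9.51 to 14.8 FPKM) and GSTT2B (6.88 to 12.6 FPKM) followed with means of 11.7, 11.6 and 10.7 FPKM, and their ranges overlapped. This order was not the same in each line: UGT1A7 had means of 21.8 FPKM (MHCC97L), 4.41 FPKM (MHCC97L-Src) and 8.91 FPKM (MHCC97L-Oxa), below those of SULT1A1 (13.0 and 10.2 FPKM) and GSTT2B (11.1 and 10.5 FPKM) in the resistant lines. CYP1B1 had means of 14.1 FPKM (MHCC97L), 1.25 FPKM (MHCC97L-Src) and 1.32 FPKM (MHCC97L-Oxa), with a highest library of 29.04 FPKM. The 5 lowest genes, GSTO2, CYP2R1, CYP4F12, CYP4B1 and CYP2U1, had means of 0.239, 0.217, 0.192, 0.111 and 0.0939 FPKM. The length implied by CPM divided by FPKM exceeded 2 times the longest GENCODE transcript for 5 of the 20 genes, at 19.4 kb against 6.42 kb for GSTO2. It fell below 1/2 of it for 2, at 0.893 kb against 2.33 kb for UGT1A7. FPKM ranks of these genes are therefore uncertain.

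**Figure D1:**
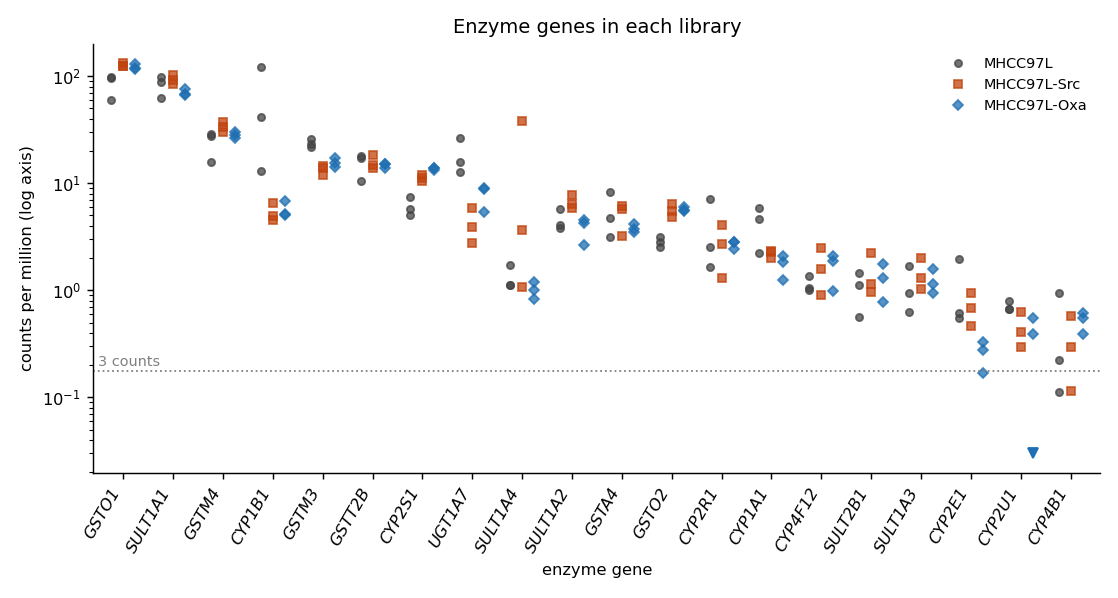
CPM (log axis) of the 20 expressed enzyme genes, one point per library, with MHCC97L as circles, MHCC97L-Src as squares and MHCC97L-Oxa as diamonds. The dotted line is the level of 3 counts and the triangle is the one library at 0 (CYP2U1 in MHCC97L-Oxa replicate 3). CYP1B1 and UGT1A7 were lower in all 6 libraries of the resistant lines than in the 3 of MHCC97L, and SULT1A4 was high in 1 library.

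Against MHCC97L, no enzyme gene passed an adjusted p of 0.05 in either resistant line by edgeR's quasi-likelihood test with Benjamini-Hochberg adjustment over all genes tested. In MHCC97L-Src, 0 of 19 tested enzyme genes were called, where 2.13% of all 12037 genes were. An unadjusted p under 0.05 was found for 7 of the 19 and for 29.5% of all genes, and DESeq2 called 5 of them and 17.6% of all genes. In MHCC97L-Oxa, 0 of 18 were called, where 0.953% of 12064 genes were, an unadjusted p under 0.05 was found for 5 and for 22.4% of all genes, and DESeq2 called 2 of them and 7.42% of all genes. CYP4B1 was too low to be tested in any comparison and CYP2E1 in MHCC97L-Oxa. A wider criterion asked for a p under 0.05 before adjustment and a change of more than 1 on the log2 scale, and 4 enzyme genes in MHCC97L-Src met it, as did 24.6% of all genes. It was met by 5 enzyme genes in MHCC97L-Oxa and by 16.2% of all genes. In MHCC97L-Src 2 of the 4 were higher (5.74% of all genes) and 2 lower (18.9%), and in MHCC97L-Oxa 2 of the 5 were higher (4.63%) and 3 lower (11.5%). The libraries of the 2 lines did not overlap in CPM for 9 of the 19 genes in MHCC97L-Src, where 30.5% of all genes did not, and for 8 of the 18 in MHCC97L-Oxa, where 29.5% did not. Both counts include CYP2U1, which met the minimum of 10 counts only through the MHCC97L libraries. The median log2 fold change of the tested enzyme genes was 0.24 in MHCC97L-Src and -0.24 in MHCC97L-Oxa, beside -0.16 and -0.19 over all genes. Both comparisons share the MHCC97L libraries. Without MHCC97L replicate 1, 2 enzyme genes were called in MHCC97L-Src (CYP1B1 and UGT1A7) and 6 in MHCC97L-Oxa (CYP1A1, CYP1B1, CYP2S1, GSTM3, GSTO1 and GSTO2), where 5.52% and 18.5% of all genes were called. Genes meeting only the wider criterion are described below by their values.

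CYP1B1, which hydroxylates estradiol and activates polycyclic hydrocarbons outside the liver, had the most negative log2 fold change of the tested enzyme genes in both resistant lines. It had 2170, 230 and 753 counts (MHCC97L replicates 1 to 3), 114, 77 and 87 (MHCC97L-Src) and 94, 91 and 122 (MHCC97L-Oxa). The 6 resistant libraries lay below the 3 of MHCC97L, and the MHCC97L libraries themselves were spread over a wide range, 59.2 ± 57.0 CPM (SD, n = 3). The MHCC97L-Src mean was 5.35 ± 1.08 CPM and the MHCC97L-Oxa mean 5.70 ± 1.01 CPM. By edgeR, CYP1B1 had log2 fold changes of -3.34 (SE 0.70; adjusted p = 0.0508) in MHCC97L-Src and of -3.30 (SE 0.71; edgeR adjusted p = 0.0787) in MHCC97L-Oxa. These are 10.1-fold and 9.85-fold lower levels. Without MHCC97L replicate 1 the log2 fold changes were -2.28 in MHCC97L-Src (edgeR adjusted p = 0.0210) and -2.20 in MHCC97L-Oxa (edgeR adjusted p = 0.0268). With a correction for GC content and gene length they came to -2.60 (edgeR adjusted p = 0.0152) for the first line and -2.67 (edgeR adjusted p = 0.0182) for the second, so the call turned on these choices while the direction did not. Without MHCC97L replicate 2, the lowest of the 3, they were -3.74 in MHCC97L-Src (edgeR adjusted p = 9.145e-04) and -3.68 in MHCC97L-Oxa (edgeR adjusted p = 0.00745). Between the resistant lines CYP1B1 had a log2 difference of -0.04 (SE 0.24; edgeR adjusted p = 0.948). In GENCODE 29 (GRCh38), CYP1B1 lies on the minus strand of chromosome 2 at 38066973 to 38109902, and its longest transcript has 44.1% GC.

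CYP1A1, the P450 most strongly induced through AHR, was far lower in abundance. It had 39, 83 and 106 counts (MHCC97L), 35, 39 and 41 (MHCC97L-Src) and 38, 33 and 22 (MHCC97L-Oxa). MHCC97L replicate 1 lay at the level of the resistant libraries, and MHCC97L-Oxa did not overlap with MHCC97L while MHCC97L-Src did. The log2 fold change was -1.31 (SE 0.51; edgeR adjusted p = 0.208) in MHCC97L-Oxa and -0.89 (SE 0.50; edgeR adjusted p = 0.256) in MHCC97L-Src. Without MHCC97L replicate 1 the value in MHCC97L-Oxa was -1.56 (edgeR adjusted p = 0.0238). CYP1A2, the third CYP1 gene and the hepatocyte form, had 2, 0 and 1 counts in MHCC97L and none in the resistant lines. As a family sum, CYP1 counts were 313 to 2211 (MHCC97L), 116 to 149 (MHCC97L-Src) and 124 to 144 (MHCC97L-Oxa).

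Of a 10-gene AHR target list, 6 were tested, CYP1A1 and CYP1B1 among them, and all 6 had negative log2 fold changes in both lines, with medians of -1.72 in MHCC97L-Src and -1.86 in MHCC97L-Oxa against -0.16 and -0.19 over all genes. The list was chosen with earlier results of these data known and holds the CYP1 genes already described. Its common direction is therefore not a separate result, and a role of AHR was not tested. By adjusted p, 1 of 6 was called in MHCC97L-Src (2.13% of all genes) and 2 of 6 in MHCC97L-Oxa (0.953%). AHRR, the repressor that AHR induces against itself, had 490, 647 and 654 counts (MHCC97L), 95, 94 and 80 (MHCC97L-Src) and 122, 125 and 115 (MHCC97L-Oxa). The groups did not overlap, with log2 fold changes of -2.62 for MHCC97L-Src (SE 0.37; edgeR adjusted p = 0.0146) and -2.32 for MHCC97L-Oxa (SE 0.31; edgeR adjusted p = 0.0271). The AHRR calls were lost without MHCC97L replicate 3 or any 1 resistant library, with edgeR adjusted p of 0.0668 to 0.0909 in MHCC97L-Src and 0.127 to 0.222 in MHCC97L-Oxa, at log2 fold changes of -2.75 to -2.47 and -2.38 to -2.13 over all omissions. NQO1, a quinone reductase under AHR and NFE2L2, had 10200, 12500 and 11342 counts (MHCC97L), 6362, 5575 and 7317 (MHCC97L-Src) and 5289, 4277 and 4512 (MHCC97L-Oxa). NQO1 fell by 1.28 in MHCC97L-Oxa (SE 0.21; edgeR adjusted p = 0.0387), and its log2 fold change was -0.72 in MHCC97L-Src, short of the threshold. The NQO1 call was lost without MHCC97L replicate 3 or any 1 MHCC97L-Oxa library (edgeR adjusted p = 0.155 to 0.321) and under a replicate block (0.0849). Each of these omissions left 2 calls over all genes, and NQO1 was called under 9 of the 10 alternatives that kept every library. In MHCC97L-Src NQO1 passed without MHCC97L replicate 1, at -0.80 (edgeR adjusted p = 0.0218). TIPARP, an ADP-ribosyltransferase that restrains AHR, had 674, 75 and 209 counts in MHCC97L and 35 to 79 in the 6 resistant libraries. TIPARP therefore overlapped between MHCC97L and MHCC97L-Oxa and was spread within MHCC97L in the order CYP1B1 showed. AHR itself had 367, 28 and 108 counts (MHCC97L), 52, 62 and 79 (MHCC97L-Src) and 79, 99 and 124 (MHCC97L-Oxa), so MHCC97L held both its highest and its lowest library. UGT1A6, a glucuronosyltransferase for small phenols and a member of the list, had 5 counts in each MHCC97L library and 0 in all 6 resistant ones, all under the minimum of 10. Its FPKM was 0.0833 to 0.126 in MHCC97L and 0.0769 in MHCC97L-Src replicate 1, so the 2 tables differ on that library.

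**Figure D2:**
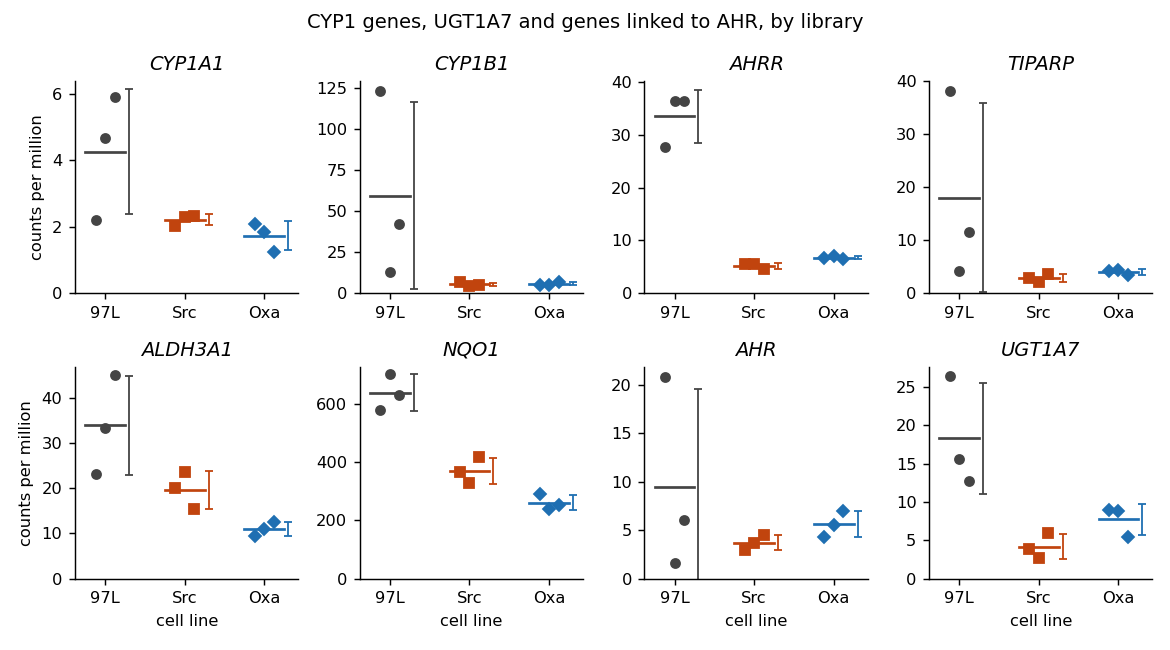
CPM of CYP1A1, CYP1B1, UGT1A7, AHR and 4 genes of the AHR target list, one point per library, with a horizontal line at the mean and a bar of ± 1 SD (n = 3, cut at 0). MHCC97L is written 97L, MHCC97L-Src as Src and MHCC97L-Oxa as Oxa. AHRR and NQO1 were lower in all 6 resistant libraries with little spread within a line, whereas CYP1B1, TIPARP and AHR were spread widely within MHCC97L.

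UGT1A7, a glucuronosyltransferase of the upper digestive tract that conjugates phenolic carcinogens, was the only UGT gene over the minimum. It had 467, 278 and 230 counts (MHCC97L), 67, 47 and 104 (MHCC97L-Src) and 164, 158 and 96 (MHCC97L-Oxa). Both resistant lines lay below MHCC97L with no overlap, and MHCC97L-Src overlapped with MHCC97L-Oxa. The means were 18.3 ± 7.20, 4.18 ± 1.60 and 7.74 ± 2.03 CPM (SD, n = 3). For UGT1A7 edgeR gave a log2 fold change of -2.06 for MHCC97L-Src (SE 0.45; edgeR adjusted p = 0.0585), 4.16-fold lower, and -1.21 in MHCC97L-Oxa (SE 0.40; edgeR adjusted p = 0.190). With the GC and length correction MHCC97L-Src passed the threshold, at -1.77 (edgeR adjusted p = 0.00701), and MHCC97L-Oxa did not, at -0.99 (edgeR adjusted p = 0.0541). MHCC97L-Src also passed without MHCC97L replicate 1, at -1.73 (edgeR adjusted p = 0.0331), and without MHCC97L replicate 2, at -2.05 (edgeR adjusted p = 0.00743). The difference between the resistant lines was -0.84 (SE 0.30; edgeR adjusted p = 0.152), and it was -1.12 (edgeR adjusted p = 0.0239) without MHCC97L-Src replicate 3. In GENCODE 29 the UGT1A genes of chromosome 2 have separate first exons and common later exons, and UGT1A7 shares 1478 of its 4167 exon bases, or 35.5%, with UGT1A1. Reads there cannot be assigned to 1 gene, so a count of UGT1A7 may hold reads of the locus as a whole or leave such reads out. The length implied by CPM and FPKM was 0.893 kb, against 2.33 kb for the longest transcript. How reads of the common exons were counted was not tested.

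Among the CYP2 genes, CYP2S1, an extrahepatic P450 of epithelia, had more counts in all 6 resistant libraries. It had 89, 103 and 134 counts (MHCC97L), 196, 201 and 183 (MHCC97L-Src) and 243, 247 and 249 (MHCC97L-Oxa). The 3 lines did not overlap with each other. CYP2S1 had a log2 fold change of 1.17 in MHCC97L-Oxa (SE 0.35; edgeR adjusted p = 0.167), 2.26-fold higher, and 0.94 in MHCC97L-Src (SE 0.40; edgeR adjusted p = 0.160). Without MHCC97L replicate 1 the value in MHCC97L-Oxa was 1.11 (edgeR adjusted p = 0.0160). CYP2S1 had the highest transcript GC content of the 20 genes, at 61.0%, and with the GC and length correction its log2 fold changes were 0.71 and 0.28. CYP2S1 lies on chromosome 19 at 41193049 to 41207539 (plus strand). CYP2R1, the vitamin D 25-hydroxylase, had 22 to 125 counts and CYP2U1, a fatty acid hydroxylase, 0 to 14. CYP2U1 had 12 to 14 counts (MHCC97L), 5 to 11 (MHCC97L-Src) and 0 to 10 (MHCC97L-Oxa), and did not pass the test (edgeR adjusted p = 0.378 and 0.385). It reached 10 counts in 5 libraries and would not have met the minimum without the 3 of MHCC97L. Its lack of overlap in CPM is therefore partly set by that minimum and rests on few reads. CYP2E1, the ethanol-inducible P450 of hepatocytes, had 3 to 35 counts. Of CYP4 genes, CYP4F12 had 24, 18 and 19 counts (MHCC97L), 43, 27 and 16 (MHCC97L-Src) and 18, 34 and 37 (MHCC97L-Oxa), with overlap throughout, and CYP4B1 had 2 to 17.

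The omega-class glutathione S-transferases, which neighbour each other on chromosome 10, had more counts in all 6 resistant libraries than in MHCC97L. GSTO1 had 1069, 1700 and 1755 counts (MHCC97L), 2278, 2098 and 2200 (MHCC97L-Src) and 2166, 2079 and 2308 (MHCC97L-Oxa). The resistant libraries lay above MHCC97L in all 6 cases and MHCC97L replicate 1 was the lowest of all. The edgeR log2 fold change of GSTO1 came to 0.64 for MHCC97L-Src (SE 0.28; edgeR adjusted p = 0.163) and 0.52 in MHCC97L-Oxa (SE 0.26; edgeR adjusted p = 0.254). GSTO2 had 50, 45 and 57 counts (MHCC97L), 96, 82 and 113 (MHCC97L-Src) and 109, 101 and 97 (MHCC97L-Oxa), again with no overlap. Its log2 fold change came to 1.04 for MHCC97L-Src (SE 0.40; edgeR adjusted p = 0.137) and 1.01 in MHCC97L-Oxa (SE 0.36; edgeR adjusted p = 0.199), close to 2-fold higher in each. In MHCC97L-Oxa, GSTO1 and GSTO2 passed the threshold without MHCC97L replicate 1, at 0.39 (edgeR adjusted p = 0.0285) and 1.05 (edgeR adjusted p = 0.0394). Summed, the omega genes had 87.5 ± 20.9 CPM (MHCC97L), 132.3 ± 4.31 CPM (MHCC97L-Src) and 127.3 ± 7.16 CPM (MHCC97L-Oxa; SD, n = 3). The promoter of GSTO1 held 2 matches to TGACNNNGC and that of GSTO2 none.

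The mu-class genes of chromosome 1 differed in direction. GSTM3 had 386, 456 and 421 counts (MHCC97L), 249, 204 and 245 (MHCC97L-Src) and 260, 275 and 303 (MHCC97L-Oxa), lower in all 6 resistant libraries. GSTM3 gave a log2 fold change of -0.75 for MHCC97L-Src (SE 0.33; edgeR adjusted p = 0.166) and -0.60 in MHCC97L-Oxa (SE 0.29; edgeR adjusted p = 0.248). GSTM3 also passed in MHCC97L-Oxa without MHCC97L replicate 1, at -0.60 (edgeR adjusted p = 0.0473). GSTM4 had 276, 510 and 500 counts (MHCC97L), 579, 639 and 527 (MHCC97L-Src) and 482, 510 and 530 (MHCC97L-Oxa). MHCC97L-Src was above MHCC97L in all libraries, and only replicate 1 of MHCC97L was below MHCC97L-Oxa. The mu-class sum was 47.8 ± 9.07 CPM (MHCC97L), 47.2 ± 2.97 CPM (MHCC97L-Src) and 43.9 ± 3.15 CPM (MHCC97L-Oxa). GSTM1 had at most 1 count in any library. GSTA4, the alpha-class enzyme for the lipid peroxidation product 4-hydroxynonenal, had 147, 84 and 56 counts (MHCC97L), 100, 55 and 108 (MHCC97L-Src) and 68, 75 and 62 (MHCC97L-Oxa). GSTT2B, of the theta class, had 184, 318 and 307 counts (MHCC97L), 259, 311 and 243 (MHCC97L-Src) and 277, 248 and 271 (MHCC97L-Oxa). Both genes overlapped between all lines.

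**Figure D3:**
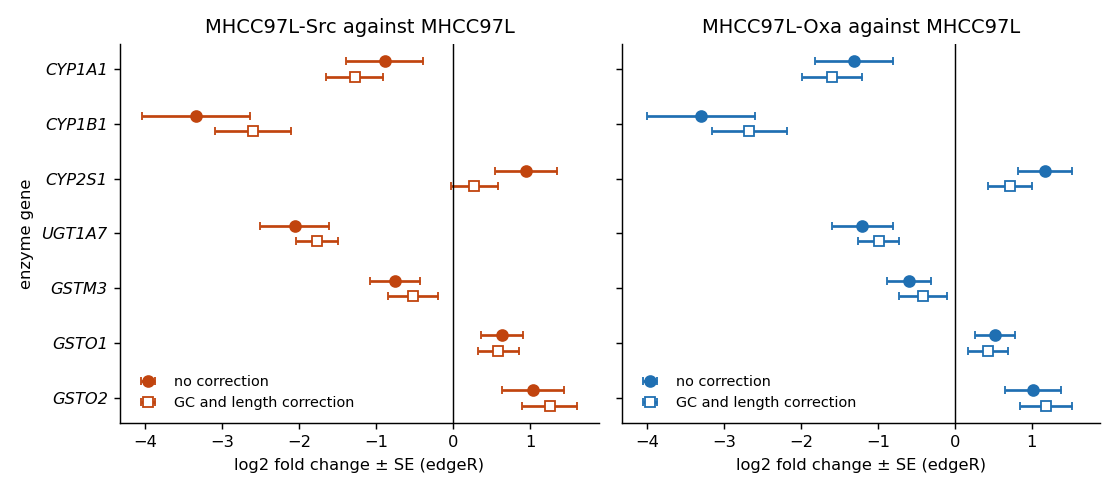
Log2 fold change with SE (edgeR) of 7 enzyme genes in MHCC97L-Src (left) and MHCC97L-Oxa (right) against MHCC97L, without correction (filled circles) and with a correction for GC content and gene length (open squares). CYP1B1 stayed between -3.34 and -2.60 in both panels, whereas CYP2S1 went from 0.94 to 0.28 in MHCC97L-Src.

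The sulfotransferases gave the only wide difference between the resistant lines, and it rested on 1 library. SULT1A4, a catecholamine sulfotransferase on chromosome 16 at 29459889 to 29464976, had 20, 20 and 31 counts (MHCC97L), 22, 15 and 18 (MHCC97L-Oxa) and 659, 62 and 19 (MHCC97L-Src). MHCC97L-Src replicate 1 stood far above the other 8 libraries, and replicate 3 lay among those of the other lines. The log2 fold change was 3.48 against MHCC97L (SE 1.16; edgeR adjusted p = 0.116) and 3.83 against MHCC97L-Oxa (SE 1.08; edgeR adjusted p = 0.0790). SULT1A4 passed without MHCC97L replicate 2 against MHCC97L, at 3.45 (edgeR adjusted p = 0.0443), and without MHCC97L-Src replicate 2 or 3 against MHCC97L-Oxa, at 4.28 (edgeR adjusted p = 0.0140) and 4.39 (edgeR adjusted p = 3.170e-04). Without MHCC97L-Src replicate 1 it was 0.98 against MHCC97L (edgeR adjusted p = 0.468), and 1.31 against MHCC97L-Oxa (edgeR adjusted p = 0.342). SULT1A3, which has the same coding sequence, had 11 to 34 counts over the 9 libraries. SLX1B, the structure-specific endonuclease subunit gene beside SULT1A4, had 95, 149 and 8 counts (MHCC97L), 6, 10 and 6 (MHCC97L-Oxa) and 192, 294 and 4 (MHCC97L-Src), while its copy SLX1A had 7 to 29. SLX1B was thus uneven in the same line, with its highest library at replicate 2 and not at replicate 1, and whether reads were divided between these copies alike in all libraries was not tested.

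SULT1A1, the main phenol sulfotransferase, had 1103, 1567 and 1754 counts (MHCC97L), 1590, 1747 and 1495 (MHCC97L-Src) and 1238, 1207 and 1358 (MHCC97L-Oxa). MHCC97L overlapped with both resistant lines, and the resistant lines did not overlap with each other. Its log2 difference between MHCC97L-Src and MHCC97L-Oxa was 0.46 (SE 0.14; edgeR adjusted p = 0.101). SULT1A2, its neighbour, had 68 to 101 counts (MHCC97L), 103 to 134 (MHCC97L-Src) and 48 to 80 (MHCC97L-Oxa), with a log2 difference of 0.86 between the resistant lines (SE 0.27; edgeR adjusted p = 0.109). Both differences passed without MHCC97L-Src replicate 3, with edgeR adjusted p of 0.0171 (SULT1A1) and 0.0343 (SULT1A2). SULT2B1, the cholesterol and hydroxysteroid sulfotransferase of skin, had 10, 20 and 26 counts (MHCC97L), 20, 38 and 17 (MHCC97L-Src) and 32, 14 and 23 (MHCC97L-Oxa), which overlapped.

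**Figure D4:**
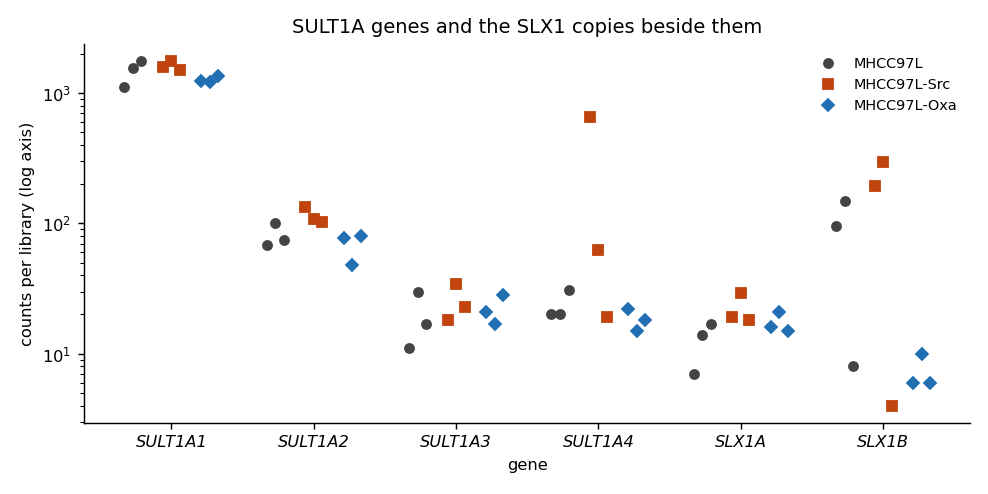
Counts per library (log axis) of the 4 SULT1A genes and of SLX1A and SLX1B, one point per library, with MHCC97L as circles, MHCC97L-Src as squares and MHCC97L-Oxa as diamonds. SULT1A4 reached 659 counts in MHCC97L-Src replicate 1 and 62 or fewer in the other 8 libraries, and SLX1B ranged from 4 to 294.

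Directly between MHCC97L-Src and MHCC97L-Oxa, 0 of 17 tested enzyme genes passed the adjusted threshold, where 4.64% of 11994 genes did. An unadjusted p under 0.05 was found for 4 of the 17 and for 19.5% of all genes, and DESeq2 called 2 of them and 7.00% of all genes. SULT1A4 alone met the wider criterion, as did 4.01% of all genes. The median log2 difference of the 17 was 0.15, against -0.02 over all genes. CYP2E1 and CYP2U1 were too low to be tested here.

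The genes around the enzymes were described from 4 further lists. Of 22 regulators, 12 were tested, and AHRR was the 1 called by adjusted p in each resistant line against MHCC97L. Of all genes, 2.13% (MHCC97L-Src) and 0.953% (MHCC97L-Oxa) were called, and AHRR is the gene already counted in the AHR target list. The list's median log2 fold change was -0.04 in MHCC97L-Src and -0.07 in MHCC97L-Oxa. Of 18 genes for electron donors and cosubstrates, all were tested and 0 were called in either line by edgeR, with 8 and 7 at an unadjusted p under 0.05 (29.5% and 22.4% of all genes), and the medians were -0.75 and -0.55. Those meeting the wider criterion were lower in each case, 6 in MHCC97L-Src (18.9% of all genes) and 5 in MHCC97L-Oxa (11.5%), among them GCLC and GCLM, the subunits of the enzyme that limits glutathione synthesis, and UGDH, which makes UDP-glucuronic acid. GCLM had 80.8, 29.5 and 30.1 CPM (MHCC97L), 13.6, 6.54 and 19.8 (MHCC97L-Src) and 16.9, 14.3 and 14.1 (MHCC97L-Oxa), with MHCC97L replicate 1 the highest. Its log2 fold change in MHCC97L-Src, -1.73, was -1.13 without that library and -0.76 with the GC and length correction, and in MHCC97L-Oxa -1.58 was -0.93 and -0.81. Of 34 other phase I enzymes, 22 and 24 were tested, and the calls were AKR1C1, which fell by 1.81 in MHCC97L-Src (SE 0.29; edgeR adjusted p = 0.0214), and NQO1 in MHCC97L-Oxa. That is 1 of 22 and 1 of 24, beside 2.13% and 0.953% of all genes. The AKR1C1 call was lost without MHCC97L replicate 3 or any 1 MHCC97L-Src library (edgeR adjusted p = 0.105 to 0.148), where 22 to 69 of all genes were called. It was also lost with the GC and length correction, at -1.31 (edgeR adjusted p = 0.0792) or at -1.12 with a block as well (edgeR adjusted p = 0.103). AKR1C1 was called under 8 of the 10 alternatives that kept every library. Of 20 other phase II enzymes, 12 were tested and 0 were called in either line by edgeR, with 3 and 2 at an unadjusted p under 0.05, beside the same 29.5% and 22.4%. GSTP1, the pi-class transferase, had 196.9 to 389.6 CPM (MHCC97L), 263.1 to 368.7 (MHCC97L-Src) and 233.7 to 257.0 (MHCC97L-Oxa), which overlapped. Over all 12037 and 12064 genes the medians were -0.16 and -0.19.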

How the data were processed

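Total RNA of 9 libraries was prepared with a stranded poly(A) kit and sequenced in pairs. Per the submitters' processing notes, reads were trimmed with Trimmomatic 0.36 and aligned with HISAT2 2.2.1.0 to GRCh38.p12. The counter, its use of strand and its annotation are not given in the sources used here. The authors deposited one table of read counts per gene and one of FPKM, which is per length and library size. Groups were taken from the treatment label. Counts were tested with edgeR 4.0.16 (quasi-likelihood, TMM, filterByExpr, R 4.3.3) on the 6 libraries of each comparison, with Benjamini-Hochberg adjustment over all genes tested and a threshold of 0.05, and FPKM with limma 3.58.1 on log2(FPKM + 1) as an alternative. DESeq2 1.42.0, other filters, normalizations, blocks, GC and length offsets and omission of each library were the other alternatives. The scripts were tested on simulated counts. The enzyme genes and the gene lists were chosen with earlier results of these data known. Every enzyme gene with at least 10 counts in 3 libraries is named, those called by either criterion and the highest of each family by FPKM with every library, and up to 3 genes per list by smallest p. CPM was taken over library totals. Spreads are SD (n = 3), for which an exact two-sided permutation test cannot go below p = 0.1. Transcript GC, length and exons were from GENCODE 29 (GRCh38), and promoters from RefSeq. Some items are not reported here.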

Additional observations from a re-analysis of the deposited data

Results flagged for a closer look

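Among the genes named, 9 had a MHCC97L-Src against MHCC97L-Oxa difference past the adjusted threshold (edgeR), which tests whether the resistant lines differ. List genes were named by smallest p over the 3 comparisons, this one included, so the 9 are not a test of the lists. By list, 2 of 12 regulators, 2 of 18 electron donor and cosubstrate genes, 6 of 21 other phase I and 1 of 12 other phase II enzymes passed. Of all 11994 genes, 4.64% passed. CES2 and CES3 passed too and were not among those named. None of the 9 was a CYP1 to CYP4, UGT, SULT or GST gene of the set described above. AKR1C1, an aldo-keto reductase, was lower in MHCC97L-Src by a log2 difference of -1.31, with 16.8, 14.9 and 21.2 CPM against 48.2, 42.2 and 45.4 in MHCC97L-Oxa. MAOB, monoamine oxidase B, differed by -1.24, PON2, a paraoxonase, by -0.85 and NFE2L2, the regulator of antioxidant genes, by -0.67. Higher in MHCC97L-Src were VDR, the vitamin D receptor, by 0.71, POR, which passes electrons to microsomal P450 enzymes, by 0.57, NQO1 by 0.55, MGST2, a microsomal glutathione transferase, by 0.50, and GSR, glutathione reductase, by 0.44. POR had 375.0, 426.3 and 361.9 CPM (MHCC97L-Src) against 260.5, 282.8 and 276.3 CPM (MHCC97L-Oxa), with no overlap. AKR1C1 and MAOB kept an edgeR adjusted p under the threshold with any 1 library left out (at most 0.0135 and 0.0336). The other 7 lost it without MHCC97L-Src replicate 1 and without MHCC97L-Oxa replicate 2 or 3, with adjusted p up to 0.311 (MGST2), and all but PON2 lost it without MHCC97L-Oxa replicate 1. Over the 10 other alternatives AKR1C1 was called in 10, MAOB and PON2 in 9, POR in 8, NFE2L2 and NQO1 in 6, VDR and GSR in 5 and MGST2 in 3. With all 9 libraries in one fit MAOB had an adjusted p of 0.0514 and PON2 of 0.901 (edgeR).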

How the results depend on the processing

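The directions against MHCC97L of CYP1A1, CYP1B1, CYP2S1, GSTO1, GSTO2, GSTM3, UGT1A7 and, in MHCC97L-Src, SULT1A4 were the same under all alternatives run for them, and CYP2U1 and GSTM4 were not run. The count of enzyme genes called by adjusted p was 0 in each comparison with edgeR and moved as follows. In MHCC97L-Src against MHCC97L it was 1 with DESeq2 size factors, 5 with DESeq2, 2 without a filter, 1 with a filter of 10 counts in 3 libraries, 4 with all 9 libraries in one fit, 2 with the GC and length correction, 1 with limma on log2(FPKM + 0.1), and 0 to 3 leaving out one library. In the same order, calls over all genes were 310, 2114, 702, 261, 1956, 1152 and 307. The genes tested were 12037, but 15167 without a filter, 12282 with that filter and 12232 with all 9 libraries. In MHCC97L-Oxa against MHCC97L it was 2 with DESeq2, 1 without a filter, 1 with all 9 libraries, 2 with the correction, and 0 to 6 leaving out one library. Calls over all genes there were 895 of 12063, 163 of 15137, 495 of 12232 and 1026 of 12064 in that order. In MHCC97L-Src against MHCC97L-Oxa it was 2 with DESeq2, 1 without a filter, 1 with the correction, and 0 to 4 leaving out one library. Calls over all genes there were 839 of 11994, 610 of 14961 and 1075 of 11994 in that order. The wider criterion, met by 4, 5 and 1 genes, was met in MHCC97L-Src by 2 with limma at either pseudocount and 2 to 5 leaving out one library. Limma at pseudocounts of 1 and 0.1 gave 657 and 1515 of all 12037 genes by that criterion. In MHCC97L-Oxa it was met by 9 without a filter, 3 with the correction, 2 with limma on log2(FPKM + 1), and 2 to 5 leaving out one library. Of all genes, 2522 of 15137, 1276 of 12064 and 344 of 12064 met it in that order. Between the resistant lines it was met by 2 without a filter, with the other filter or with all 9 libraries, 0 with limma on log2(FPKM + 1), and 1 to 3 leaving out one library. Of all genes, 647 of 14961, 527 of 12282, 403 of 12232 and 109 of 11994 met it in that order. Over omissions of one library, the highest adjusted counts against MHCC97L came without MHCC97L replicate 2 (3, MHCC97L-Src) and without MHCC97L replicate 1 (6, MHCC97L-Oxa), and the highest between the resistant lines came without MHCC97L-Src replicate 3. These omissions called 3419 of 12288, 2251 of 12168 and 1617 of 12121 of all genes. Over all genes, the 256, 115 and 556 calls ranged over 22 to 3419, 2 to 2705 and 86 to 1617. The difference of CYP1B1 between the resistant lines, -0.04, turned to 0.0661 with the correction and 0.0670 with correction and block, and lay between -0.21 and 0.12 leaving out one library. The cause was not tested. Under a replicate block the adjusted counts were 2, 0 and 1 and the wider counts 3, 3 and 1, and with block and correction the adjusted counts were 2, 1 and 0. Of all genes, the block called 988, 92 and 406 by adjusted p and 2600, 1314 and 485 by the wider criterion. Block and correction called 588, 818 and 477 by adjusted p. Same-numbered libraries had correlations of 0.16, 0.21 and -0.63 in the first comparison. They were -0.21, -0.13 and 0.42 in the second and 0.03, -0.07 and -0.27 in the third. GC dependence also differed between libraries of a line, so these values cannot decide whether the numbers pair the libraries. With 5 or 20 counts in place of 10, 23 or 17 enzyme genes passed. Genes under 10 counts cannot show a moderate difference at this depth.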
